A study of Mus musculus with 36 samples.

Results

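Keratin genes were read out in bulk mRNA sequencing of 36 mouse tumors grown under the skin. All genes whose symbol was Krt, a number and at most 1 further letter were taken, which gave 54 of the 37417 genes in the count table (keratin-associated proteins, named Krtap, were left out). Every sample was a wild-type mouse of 12 weeks, as labelled. MC38 (colon adenocarcinoma) and PancO2 (pancreatic adenocarcinoma) tumors were labelled as grown in C57BL/6J mice and CT26 (colon carcinoma) tumors in BALB/c mice. Each model was treated intraperitoneally at 10 mg per kg with rat control IgG or with an antibody against CTLA4 or PD-1, both checkpoint receptors of T cells. This made 9 labelled groups of 4 libraries, and every library is named here by its labelled group and mouse number. All 3 models are transplanted cell lines, so each sample holds the line's cells together with cells of the host.

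Keratins are the intermediate filament proteins of epithelial cells. A filament is built from pairs of a type I and a type II keratin, and the pairs in use mark the kind of epithelium. Krt8 with Krt18 is the first pair of simple, single-layered epithelia, joined by Krt19, Krt20 and Krt7 in glands, gut and ducts. Krt5 with Krt14 mark the basal layer of the epidermis, Krt1 with Krt10 the layers above it, and Krt6a, Krt6b, Krt16 and Krt17 the hair follicle and wounded or proliferating epidermis. The inner root sheath that molds a growing hair has its own set, among them Krt71 and Krt25, and the hair shaft another.

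Counts assigned to genes ran from 7883106 to 41751023 per library, with a median of 27968270, so that 1 count was worth 0.024 to 0.127 CPM (a gene's count scaled to the same total in every library). The shallowest library was PancO2 anti-PD-1 71, where 86.5% of the reads stood in lines that name no gene, against 44.8% to 63.4% in the other 35, and where 15.7% of counts came from mitochondrially encoded genes, against at most 4.35% elsewhere. The libraries fell into 3 expression classes of 12, set by 2 genes that are no keratins. In the H2-Ea-ps-positive class the MHC class II gene H2-Ea-ps, which C57BL/6 mice do not transcribe and BALB/c mice do, was above 10 CPM (32.8 to 134). In the Cp-high class Cp, which encodes the copper carrier ceruloplasmin, was above 1000 CPM (1389 to 2168), and in the remaining class, called neither, Cp was at 255 to 611 CPM and H2-Ea-ps at most at 0.035 CPM. These classes cut across the labels. All 9 labelled groups held libraries of more than 1 class, 8 of them of all 3, and for 16 of the 36 libraries H2-Ea-ps went against the labelled strain. Levels are therefore given by class and by library. The classes were drawn from the data, so no test was run between them.

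The 54 keratins were all detected, with at least 1 count in some library, but few were expressed widely. 41 exceeded 1 CPM in at least 1 library, 18 exceeded 10 CPM in at least 1 library, and 18 exceeded 1 CPM in at least 4 libraries. Sorted by the epithelium they are known for, 7 were simple epithelial keratins, 8 belonged to the interfollicular epidermis, 6 to the follicle and stressed epidermis, 6 to mucosa and cornea, 8 to the inner root sheath and 15 to the hair shaft, and 4 were in no list. In the GENCODE M21 annotation of GRCm38, 26 type I genes lay within 990 kb of chromosome 11 and 26 type II genes within 657 kb of chromosome 15. Krt18 was the 1 type I gene at the type II cluster, 23.7 kb from Krt8. Krt222, a keratin-like gene, was left without a type.

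The simple epithelial pair Krt8 and Krt18 split the 3 classes. Cp-high libraries expressed both, the class called neither expressed Krt8 with almost no Krt18, and H2-Ea-ps-positive libraries expressed some Krt18 with almost no Krt8. Krt8 (ENSMUSG00000049382, chr15:101996698-102004482, minus strand) was lowest at 350, had a median of 435 and was highest at 622 CPM in the Cp-high class. In the class called neither these values were 56.8, 141 and 420 CPM, and in the H2-Ea-ps-positive class 0.037, 0.409 and 5.71 CPM. The Cp-high and H2-Ea-ps-positive ranges, and the H2-Ea-ps-positive and neither ranges, did not overlap, whereas the highest neither libraries reached into the Cp-high range. The 5.71 CPM were in PancO2 anti-PD-1 71, and the next H2-Ea-ps-positive library stood at 1.22 CPM.

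Krt18 (ENSMUSG00000023043, chr15:102028180-102032027, plus strand), the type I partner, kept the classes fully apart. Its lowest, median and highest levels were 215, 285 and 507 CPM in Cp-high libraries, 6.84, 10.8 and 40.6 CPM in H2-Ea-ps-positive libraries and 0.195, 0.346 and 1.45 CPM in the class called neither. The order of the classes was thus not that of Krt8. Per kb of exon the partners stood near equal amounts only in the Cp-high class, where the ratio of Krt8 to Krt18 ran from 0.899 to 1.30 with a median of 1.14. It ran from 140 to 342 with a median of 280 in the class called neither, and from 0.0040 to 0.298 with a median of 0.026 in the H2-Ea-ps-positive class. In bulk tissue, fewer cells of a type and less RNA per cell cannot be told apart.

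**Figure D1:**
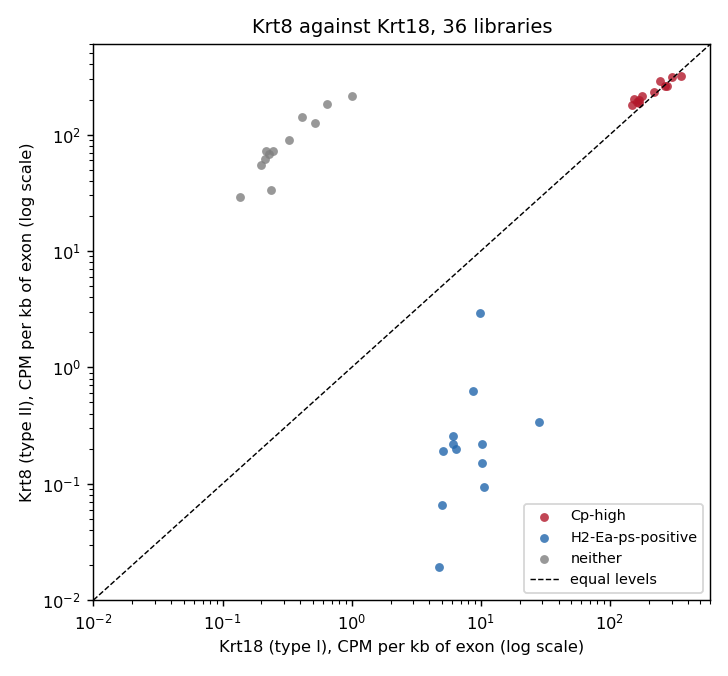
Each point is 1 of 36 libraries, with Krt18 on the horizontal and Krt8 on the vertical axis, both in CPM per kb of exon on log scales; colors give the expression class and the dashed line marks equal levels. The Cp-high libraries lie along the line, the libraries called neither above it (ratios of 140 to 342) and the H2-Ea-ps-positive libraries below it (0.0040 to 0.298).

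The promoter side of this pair is shown because the genes are neighbors on opposite strands and yet were expressed apart. RefSeq windows of 250 bases before and 50 after the start site were at hand for 36 of the 54 keratins (37 windows, GRCm38.p6), and bases inside any GENCODE exon are left out of the stretches printed here. Capitals mark a match to 1 of 4 motifs, each searched alone on both strands so that matches may overlap. The TATA box was spelled TATAAA and occurs in 13.6% of all 32851 mouse windows. The GC box, GGGCGG, is in 35.7% of them. The AP-1 site, TGANTCA, is in 7.81%, and the CCAAT box in 37.4%. The stretches are chr15:102004483-102004592 for Krt8 (minus strand), chr15:102027966-102028179 for Krt18 (plus strand) and chr11:99438154-99438403 for Krt20 (minus strand), each written 5′ to 3′ on its gene's strand.
Krt8: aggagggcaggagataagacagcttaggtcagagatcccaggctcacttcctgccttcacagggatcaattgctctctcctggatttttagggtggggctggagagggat
Krt18: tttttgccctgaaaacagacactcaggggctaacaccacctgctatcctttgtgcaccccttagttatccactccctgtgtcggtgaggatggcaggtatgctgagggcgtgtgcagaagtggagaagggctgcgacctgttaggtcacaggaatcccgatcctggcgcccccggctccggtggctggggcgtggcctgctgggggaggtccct
Krt20: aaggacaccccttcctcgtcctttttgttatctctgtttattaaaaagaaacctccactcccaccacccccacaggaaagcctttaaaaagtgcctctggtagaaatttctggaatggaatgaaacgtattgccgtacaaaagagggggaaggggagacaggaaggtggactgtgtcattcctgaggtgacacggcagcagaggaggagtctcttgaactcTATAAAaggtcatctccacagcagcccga
The Krt8 and Krt18 stretches held none of these motifs, and Krt20 held a TATA box that began 29 bases before its start site. Krt18 had 17 CG dinucleotides in its whole window, against a median of 7 over all mouse windows and 6 for both Krt8 and Krt20. In the bases of Krt8 that are left out, the TATA box letters began 1 and 3 bases before the RefSeq start site.

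Krt20, a keratin of gut epithelium and urothelium, belonged to the H2-Ea-ps-positive class. Its lowest, median and highest levels were 63.8, 161 and 253 CPM there, 0.228, 0.491 and 2.36 CPM in the class called neither, and 0, 0.112 and 0.384 CPM in Cp-high libraries. No library of the other classes came near the 63.8 CPM of PancO2 anti-PD-1 71, the lowest of its class. Krt20 alone made up 66.4% to 94.2% of all type I keratin per kb in H2-Ea-ps-positive libraries, with a median of 90.7%. The smallest Krt20 level of that class and the largest Krt8 level of that class were in the same library.

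Krt19, a type I keratin of ducts, followed the Cp-high class, at 6.03, 21.3 and 51.3 CPM (lowest, median, highest). It did not exceed 0.424 CPM in H2-Ea-ps-positive libraries or 0.930 CPM in the class called neither. Krt13, which is known from stratified mucosa rather than simple epithelium, showed the same division at a lower level. It lay between 0.737 and 5.71 CPM with a median of 2.10 CPM in Cp-high libraries, and at most at 0.085 and 0.112 CPM in the other classes. Krt8, Krt18, Krt19 and Krt13 were all highest in CT26 anti-CTLA4 36, and within the Cp-high class all 4 were lowest in MC38 anti-PD-1 18, where Krt19 ranged 8.52-fold, Krt13 7.75-fold, Krt18 2.36-fold and Krt8 1.77-fold between these libraries. MC38 anti-PD-1 18 also had the highest skeletal muscle marker sum of all libraries, 731 CPM against a Cp-high median of 54.8 CPM, and its part in the low keratin levels was not tested.

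The class called neither had a spread of its own. Krt8 ranged 7.39-fold and Krt18 7.43-fold there, with MC38 IgG 2 the lowest and CT26 anti-CTLA4 32 the highest library for both. Krt19 was also highest in CT26 anti-CTLA4 32 (0.930 CPM), and so was Krt80 (45.4 CPM). Krt18 stayed at or under 1.01 CPM per kb in all 12, beside a Krt8 of 29.03 to 215 CPM per kb.

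Krt80, Krt7 and Krt23 overlapped between all classes. Krt80, a type II keratin of many epithelia, was found in all 36 libraries, at 9.11 to 43.3 CPM in Cp-high, 20.9 to 77.5 CPM in H2-Ea-ps-positive and 18.5 to 45.4 CPM in the class called neither, with medians of 20.1, 45.4 and 26.9 CPM. With Krt8 nearly absent, Krt80 made up a median of 95.6% of type II keratin per kb in H2-Ea-ps-positive libraries, against 1.09% in Cp-high libraries and 4.67% in the class called neither. Krt7, of ducts and mesothelium, had medians of 1.74, 0.578 and 1.30 CPM in Cp-high, H2-Ea-ps-positive and neither libraries. It lay between 0.301 and 6.72 CPM over all libraries, the top value again in PancO2 anti-PD-1 71, without which no H2-Ea-ps-positive library reached the lowest Cp-high level of 1.05 CPM. Krt23 stayed under 1 CPM everywhere and leaned to the Cp-high class, with a median of 0.412 CPM there against 0.016 and 0 CPM.

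**Figure D2:**
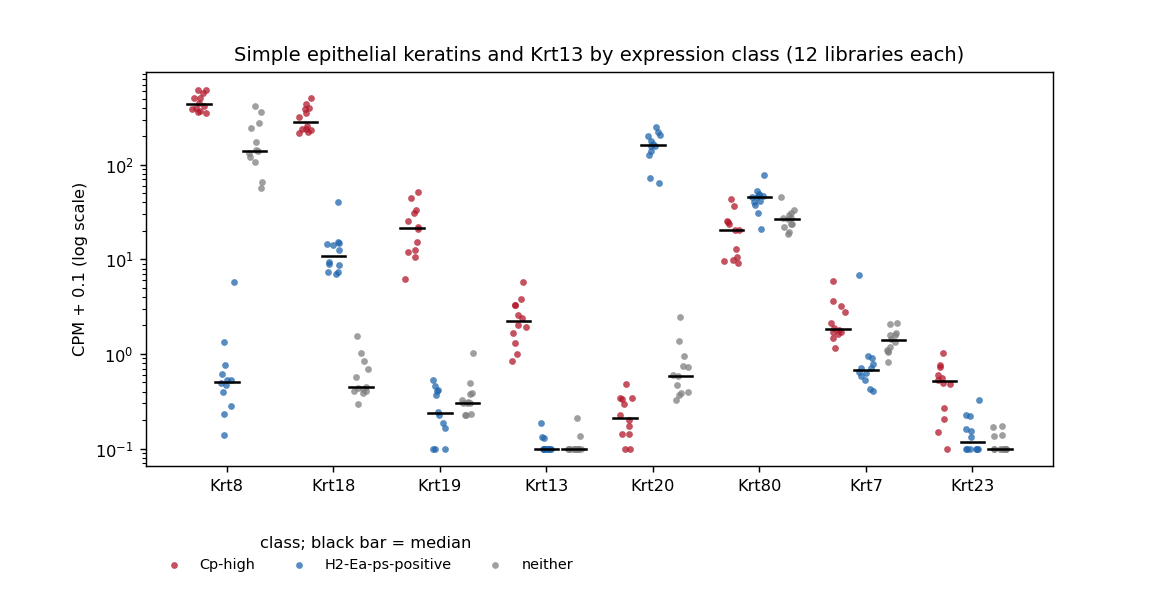
The level of 7 simple epithelial keratins and Krt13 is plotted as CPM plus 0.1 on a log axis, with 1 point per library, 12 libraries in each class and a black bar at the class median. Krt18 separates all 3 classes, Krt20 the H2-Ea-ps-positive class, Krt19 and Krt13 the Cp-high class, while Krt80 and Krt7 overlap throughout.

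Type I and type II levels, summed per kb over all members, were nearly balanced in the Cp-high class (type II over type I 0.831 to 1.23, median 1.05). They were not in the other classes. The ratio had a median of 0.084 in H2-Ea-ps-positive libraries (0.042 to 0.223) and of 22.5 in the class called neither (1.44 to 71.4). The type I side of the class called neither was small, at a median of 3.74 CPM per kb, and a median of 53.8% of it was Krt10. The 1.44 belonged to CT26 IgG 29, which also carried epidermal keratins.

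Over all members few keratins separated the classes. With all 36 libraries and all 54 keratins, no count was above the share found among all genes. Every Cp-high library was above every neither library for 3 of 54 keratins (Krt13, Krt18, Krt19), beside 7.79% of 30558 genes with a count, and below for 0 of 54, beside 8.01% of genes. Against the H2-Ea-ps-positive class, Cp-high libraries were all higher for 4 keratins (Krt8, Krt13, Krt18, Krt19), beside 9.82% of genes, and all lower for Krt20, beside 6.36%. H2-Ea-ps-positive libraries were all above the neither class for Krt18 and Krt20, beside 5% of genes, and all below it for Krt8, beside 8.78%. Without PancO2 anti-PD-1 71, Krt7 and Krt83 joined the 4 that were higher in Cp-high than in H2-Ea-ps-positive libraries, which made 6 of 54 beside 11.8% of genes. Krt14 and Krt222 joined Krt8 as lower in H2-Ea-ps-positive than in neither libraries, which made 3 of 54 beside 10.7% of genes. Among genes above 1 CPM in at least 4 libraries (15217, with 18 keratins), every count of higher keratins was above the gene share. With all 36 libraries they were 3, 4 and 2 of 18, beside 14.6%, 18.9% and 9.19%, in the order above. Those of lower keratins were 0, 1 and 1 of 18, beside 15.5%, 12% and 17%, each below it. For the higher counts, 1 keratin fewer would put each below the share.

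PancO2 IgG 49, at 611 CPM the neither library with the most Cp, would count as Cp-high if the Cp limit were 500 CPM. Its simple keratins were those of the class called neither, at 275 CPM for Krt8, 0.590 CPM for Krt18 and 0.127 CPM for Krt19. With it moved, 0 keratins separated Cp-high from neither libraries upwards, and Krt8 remained as the 1 keratin that was higher in all Cp-high than in all H2-Ea-ps-positive libraries. The fall was not particular to keratins. Among all 30558 genes, those higher in every Cp-high library fell from 2379 to 541 against neither libraries. Against H2-Ea-ps-positive libraries they fell from 3002 to 1986.

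The genes most like Krt18 over the 36 libraries, by Pearson correlation of log2(CPM + 1) among 15217 genes, were Pdx1 (r = 0.981), Zdhhc2 (0.980), Cyp2j6 (0.979), Rbm20 (0.976) and Clec11a (0.973). Pdx1, a transcription factor of pancreas and duodenum, had class medians of 55.6 CPM in Cp-high, 5.02 CPM in H2-Ea-ps-positive and 0.033 CPM in neither libraries. The 36 points share their 3 classes, between which many other genes differ too.

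Other genes of simple epithelia were low. Of 10 listed, 4 passed 1 CPM in at least 4 libraries, and their sum ran from 8.66 to 37.1 CPM in Cp-high, 1.94 to 17.4 CPM in H2-Ea-ps-positive and 4.26 to 16.5 CPM in neither libraries. Cdh1, the adhesion molecule E-cadherin, had medians of 8.44, 1.80 and 5.70 CPM in these classes. Epcam, a surface protein of most simple epithelia and of carcinomas, had medians of 0.969, 0.182 and 0.143 CPM, and the highest level of Esrp1, an epithelial splicing factor, was 5.11 CPM, in PancO2 IgG 48. Of 8 mesenchymal genes, all passed 1 CPM in at least 4 libraries, with sums of 5919 to 15064 CPM. The medians of Fn1 (fibronectin) were 9876, 3847 and 3767 CPM, those of Vim (vimentin, the intermediate filament of mesenchymal cells) 2207, 4775 and 3685 CPM, and those of the transcription factor Zeb2 253, 281 and 172 CPM, in Cp-high, H2-Ea-ps-positive and neither libraries. Bulk levels hold host cells as well, which express these mesenchymal genes. The mesothelial list was carried by Msln (mesothelin), at 98.4 to 380 CPM over all libraries, whereas Wt1 and Lrrn4 reached 18.01 and 1.90 CPM, both in PancO2 anti-PD-1 71.

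Genes that anchor keratin filaments to desmosomes and hemidesmosomes were high in sum in every class, but several of them were low. Plec had the highest median of those listed in each class. Of 14 listed, 13 passed 1 CPM in at least 4 libraries, and the sum was 1870 to 3385 CPM in Cp-high, 2007 to 4780 CPM in H2-Ea-ps-positive and 1858 to 3437 CPM in neither libraries. Plec and Dst, linkers of the plakin family, had class medians of 1242, 2884 and 1616 CPM and of 548, 568 and 563 CPM, and Itga6, an integrin of the hemidesmosome, of 104, 468 and 384 CPM. Between Cp-high and neither libraries, 4 of 14 were higher and 1 lower without overlap, beside 7.79% and 8.01% of all genes. Those higher were, as seen after the values, Jup, Pkp1, Ppl and Itgb4, with Ppl (periplakin) at 142 to 364 CPM in Cp-high and at most 1.73 CPM in neither libraries. Between Cp-high and H2-Ea-ps-positive libraries the counts were again 4 and 1, beside 9.82% and 6.36%, and between H2-Ea-ps-positive and neither libraries 1 and 3, beside 5% and 8.78%. Dsp, the plakin that holds keratin at the desmosome, was under 1 CPM at the median of each class, and so were Dsg2 and Perp of this list. Medians under 1 CPM were also those of Pkp1 (0.030 CPM), Pkp2 (0.641 CPM) and Evpl (0.264 CPM) in H2-Ea-ps-positive libraries. In neither libraries they were those of Pkp1 (0.218 CPM), Ppl (0.434 CPM) and Dsc2 (0.645 CPM).

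Skin keratins behaved otherwise and were high in single libraries. Of the 43 keratins of the interfollicular, follicle and stress, mucosal, inner root sheath and hair shaft lists, 34 had a peak, defined as a level above 10 times the gene's median over the 36 libraries and of at least 1 CPM. Peaks were found in 15 libraries, in 3 of which the 1 such peak was Krt13, and 9 libraries held peaks of 3 or more such keratins. The highest epidermal and the highest hair keratin levels were in different libraries, but both libraries with the most hair keratin also held epidermal peaks, 10 of the 14 interfollicular and follicle or stress keratins in MC38 anti-PD-1 17 and 5 in CT26 anti-PD-1 46. PancO2 IgG 48 held peaks of 11 of these 14 and of 0 inner root sheath or hair shaft keratins. Promoter stretches of 1 epidermal and 2 inner root sheath genes are printed for comparison, chr15:101712906-101713155 for Krt5, chr11:99322952-99323201 for Krt25 and chr15:101743110-101743347 for Krt71, all on the minus strand and with the motifs named above in capitals.
Krt5: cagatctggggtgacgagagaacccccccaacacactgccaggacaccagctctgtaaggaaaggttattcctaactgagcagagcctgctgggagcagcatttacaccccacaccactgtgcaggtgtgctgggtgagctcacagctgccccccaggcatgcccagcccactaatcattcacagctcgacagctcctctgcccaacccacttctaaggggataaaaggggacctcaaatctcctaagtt
Krt25: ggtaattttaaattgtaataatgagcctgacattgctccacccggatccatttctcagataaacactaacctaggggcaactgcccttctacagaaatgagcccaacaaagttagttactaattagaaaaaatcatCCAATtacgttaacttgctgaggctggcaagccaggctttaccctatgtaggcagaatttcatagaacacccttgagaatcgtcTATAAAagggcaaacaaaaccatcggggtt
Krt71: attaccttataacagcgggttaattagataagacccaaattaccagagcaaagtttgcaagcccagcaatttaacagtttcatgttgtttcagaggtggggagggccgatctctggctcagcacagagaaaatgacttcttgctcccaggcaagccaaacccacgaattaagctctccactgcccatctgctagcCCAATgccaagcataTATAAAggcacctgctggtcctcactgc
All 7 inner root sheath genes with a window held the TATA box, as did 6 of 9 hair shaft genes, 1 of 6 interfollicular genes (Krt10) and 0 of 2 follicle and stress genes, beside 13.6% of all mouse windows. It began 30 bases before the start site in Krt25, Krt26, Krt28 and Krt73, 40 bases before in Krt71, 15 in Krt27 and 203 in Krt72, and Krt26 held it once more, 158 bases before. Only the exact spelling was counted, so near forms such as gataaa in the Krt5 stretch were not. A match counted anywhere in the window, as far as 206 bases before the start site in the hair shaft gene Krt84.

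Epidermal keratins were highest in PancO2 IgG 48, a Cp-high library. Of the 14 interfollicular and follicle or stress keratins, 11 had their highest level there, and 943 CPM of stratified and hair keratins made up 59.1% of its summed keratin CPM, against a Cp-high median of 1.45%. Krt14, the basal type I keratin, reached 210 CPM, with 46.3 CPM in CT26 IgG 29 and 19.5 CPM in PancO2 IgG 49, both of the class called neither. No other library passed 8.08 CPM. Its partner Krt5 was at 108, 12.9 and 3.84 CPM in the same libraries, with 13.6 CPM in MC38 anti-PD-1 17 and 6.96 CPM in CT26 anti-PD-1 46 between them. The suprabasal Krt1 stood at 126, 17.5 and 7.38 CPM, and the last value was below the 12.8 CPM of MC38 anti-PD-1 17, the 10.7 CPM of MC38 anti-CTLA4 11 and the 8.75 CPM of CT26 anti-CTLA4 36. The median of both genes over all libraries was 0.

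Keratins of stressed epidermis were high in the same libraries, Krt17 less closely than the others. Krt6a was at 113 CPM in PancO2 IgG 48, 26.6 CPM in CT26 IgG 29 and 8.01 CPM in PancO2 IgG 49. Krt6b was at 93.7, 24.4 and 8.56 CPM, and Krt16 at 100.05, 19.4 and 7.76 CPM, and these were the 3 highest libraries for all 3 genes. Krt17, at 61.2, 5.47 and 1.10 CPM, was higher in MC38 anti-PD-1 17 (5.89 CPM) than in CT26 IgG 29, and higher in CT26 anti-PD-1 46 (3.75 CPM) and CT26 anti-CTLA4 36 (1.24 CPM) than in PancO2 IgG 49. Krt77 (23.6 CPM) and Krt79 (19.5 CPM) and the basal and bulge keratin Krt15 (7.15 CPM) peaked in PancO2 IgG 48 and stayed under 1 CPM in CT26 IgG 29 and PancO2 IgG 49. Summed over the 14, MC38 anti-PD-1 17 held 70.8 CPM, more than the 62.1 CPM of PancO2 IgG 49. Smaller sums were in MC38 anti-CTLA4 11 (37.0 CPM), CT26 anti-CTLA4 36 (32.1 CPM) and CT26 anti-PD-1 46 (23.7 CPM). The median over all libraries was 4.88 CPM.

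The mix of epidermal keratins was not fixed. Per kb, Krt14 over Krt5 was 2.43 in PancO2 IgG 48, 4.50 in CT26 IgG 29, 6.34 in PancO2 IgG 49 and 4.41 in MC38 anti-CTLA4 11, but 0.741 in MC38 anti-PD-1 17 and 0.382 in CT26 anti-PD-1 46, the 2 libraries with hair keratins. In CT26 anti-PD-1 46, Krt5 was at 6.96 CPM and Krt17 at 3.75 CPM while Krt1 was at 0.060 CPM and Krt6b at 0.

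Krt10 and Krt14 had a level outside the peaks as well. Krt10, the type I partner of Krt1, was found in all 36 libraries, with class medians of 4.27, 2.97 and 4.43 CPM and a lowest value of 2.39 CPM, while Krt1 was at 0 in most of them. Krt14 had a median of 1.30 CPM in the class called neither, where its lowest value was 0.458 CPM, against medians of 0.115 CPM in Cp-high and 0.036 CPM in H2-Ea-ps-positive libraries. Krt2 did not pass 0.507 CPM, and Krt9, the keratin of palm and sole, had 1 count as its highest.

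**Figure D3:**
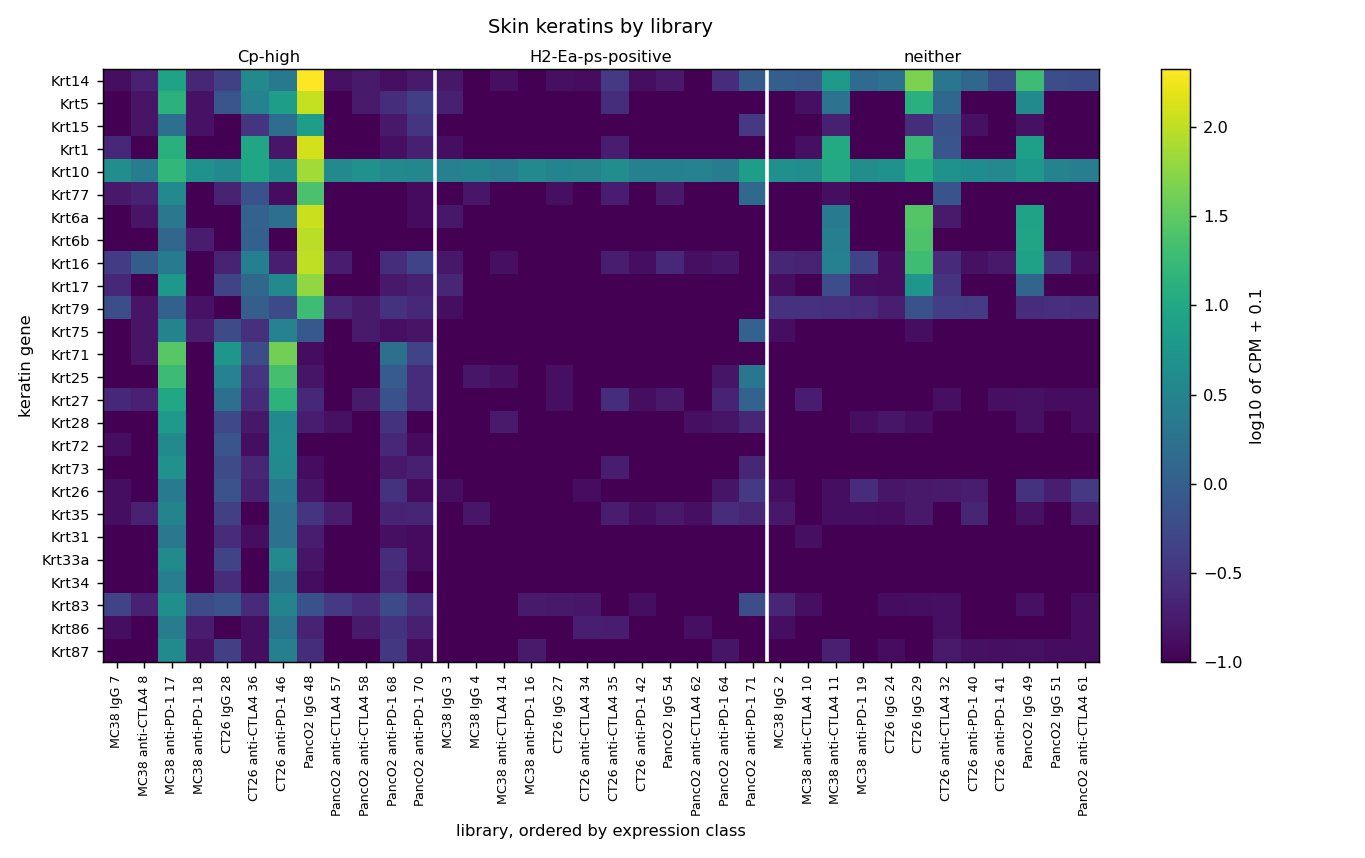
Colors give the log10 of CPM plus 0.1 for 26 skin keratins (vertical axis; epidermal above, inner root sheath and hair shaft below) in 36 libraries (horizontal axis, ordered by class with white lines between classes). Krt14, Krt6a, Krt6b and Krt16 are brightest in PancO2 IgG 48, CT26 IgG 29 and PancO2 IgG 49, the rows from Krt75 to Krt87 in MC38 anti-PD-1 17 and CT26 anti-PD-1 46, and Krt10 in every column.

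Other epidermal genes were highest with these keratins in PancO2 IgG 48, but followed them less closely elsewhere. Of 9 listed epidermal markers in the table, all 9 were highest in PancO2 IgG 48, and their sum was 199 CPM there against a Cp-high median of 14.8 CPM. Sfn (55.3 CPM), Sbsn (37.8 CPM) and Krtdap (35.1 CPM), genes of differentiating keratinocytes, led the list. In CT26 IgG 29 the sum was 26.7 CPM, the highest of the class called neither, which had a median of 7.99 CPM. MC38 anti-PD-1 17 had a higher sum, 33.2 CPM, with less epidermal keratin (70.8 CPM against 165 CPM). It is a Cp-high library, however, and the median sum of that class (14.8 CPM) was above that of the class called neither (7.99 CPM). PancO2 anti-PD-1 71 stood at 24.1 CPM. The genes most like Krt14 over the 36 libraries were Calm4 (r = 0.946), Dmkn (0.943), Dsp (0.931), Ly6d (0.910) and Spink5 (0.909), each highest in PancO2 IgG 48. Since few libraries carry the signal, these coefficients rest on them. Dsp stood at 57.9 CPM in PancO2 IgG 48 and 14.2 CPM in CT26 IgG 29, and Perp, another desmosomal gene, at 71.2 and 10.97 CPM.

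Hair keratins were highest in a pair of libraries in which epidermal keratins were lower than in PancO2 IgG 48. Of 23 inner root sheath and hair shaft keratins, 18 had MC38 anti-PD-1 17 and CT26 anti-PD-1 46, both Cp-high, as their highest pair of libraries, and 16 of the 18 that passed 1 CPM did so. Krt71, a type II keratin of the inner root sheath, was at 29.1 CPM in MC38 anti-PD-1 17 and 40.97 CPM in CT26 anti-PD-1 46. It was next highest at 5.70 CPM in CT26 IgG 28 and 1.61 CPM in PancO2 anti-PD-1 68, and was found in 8 libraries in all, with none detected in the H2-Ea-ps-positive and neither classes. Its type I partners followed, with Krt25 at 19.002 and 21.7 CPM and Krt27 at 9.52 and 13.9 CPM in the same libraries. CT26 IgG 28 held 2.90 CPM of Krt25 and 1.53 CPM of Krt27, and for 16 of the 23 genes it was the third of the 3 highest libraries.

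Hair shaft keratins were lower. Krt83 reached 4.41 CPM in MC38 anti-PD-1 17 and 3.09 CPM in CT26 anti-PD-1 46, and Krt87 3.75 and 2.64 CPM. Krt75, the type II keratin of the companion layer between root sheath and hair, also belonged here, at 2.93 and 2.91 CPM against 0.729 CPM in PancO2 IgG 48. The sums of the 23 genes were 103 and 110 CPM in the pair, 15.1 CPM in CT26 IgG 28, 10.02 CPM in PancO2 anti-PD-1 71, 5.49 CPM in PancO2 anti-PD-1 68 and 2.24 CPM in PancO2 IgG 48, against a median of 0.307 CPM over all libraries. PancO2 IgG 48 thus held 936 CPM of epidermal keratins beside 2.24 CPM of hair keratins, which was still above that median.

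**Figure D4:**
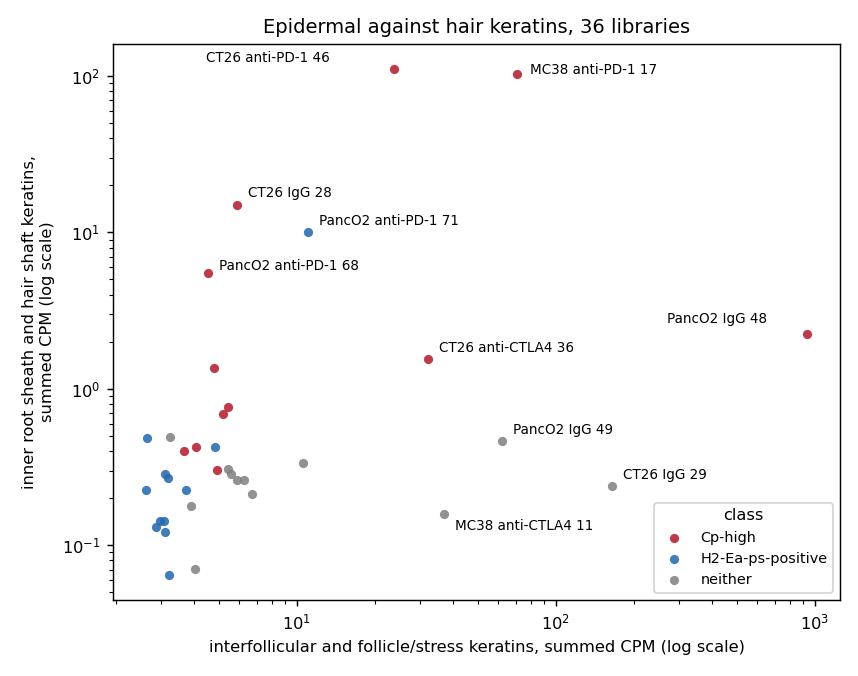
Each point is 1 of 36 libraries, with the summed CPM of 14 interfollicular and follicle or stress keratins on the horizontal and of 23 inner root sheath and hair shaft keratins on the vertical axis, both on log scales and colored by class. PancO2 IgG 48 (936 and 2.24 CPM) and CT26 IgG 29 (165 CPM) lie to the right, MC38 anti-PD-1 17 (103 CPM of hair keratins) and CT26 anti-PD-1 46 (110 CPM) at the top.

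The hair follicle list was highest in the same pair, mostly through 1 gene. Its 10 genes summed to 112 CPM in MC38 anti-PD-1 17 and 103 CPM in CT26 anti-PD-1 46, against a Cp-high median of 9.41 CPM, and to 13.2 CPM in PancO2 IgG 48. Tchh, which encodes trichohyalin of the inner root sheath, was the main part, at 90.2 CPM in MC38 anti-PD-1 17 and 86.98 CPM in CT26 anti-PD-1 46. PancO2 anti-PD-1 71 followed with a sum of 56.1 CPM, with Tchh at 0.381 CPM, and was the highest library for 5 of the 10 genes (Krtap3-2, Foxn1, Dlx3, Gata3 and Lhx2), against 1 in MC38 anti-PD-1 17 and 3 in CT26 anti-PD-1 46. Gata3 and Hoxc13, transcription factors of hair cells that other cells also express, were highest elsewhere, at 36.7 CPM in PancO2 anti-PD-1 71 and 12.8 CPM in CT26 IgG 29. Hoxc13 had a class median of 10.8 CPM in the class called neither against 0.062 CPM in Cp-high libraries, so it did not track hair keratins.

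Markers of other tissues near the skin are given beside these results. The sebaceous list was carried by Mgst1, a broadly expressed transferase, at 44.3 to 90.01 CPM in Cp-high libraries and at most 18.8 CPM elsewhere, whereas Elovl3, a lipid elongase of the gland, was highest at 1.01 CPM in PancO2 IgG 48 and Dgat2l6 at 3.81 CPM in PancO2 anti-PD-1 71. Skeletal muscle genes summed to 164 CPM in PancO2 IgG 48, 35.7 CPM in MC38 anti-PD-1 17 and 59.1 CPM in CT26 anti-PD-1 46, against medians of 38.0 to 54.8 CPM in the classes. Their highest sum, in MC38 anti-PD-1 18, was made of Acta1 (235 CPM), Myh4 (189.7 CPM) and Myh1 (101 CPM) in the main, in a library without skin keratin peaks. Adipocyte genes were low throughout, with sums of at most 3.34 CPM, reached in PancO2 IgG 48, where Adipoq stood at 1.18 CPM. Cidea and Lep reached 1.01 CPM each, in PancO2 anti-PD-1 71. The melanocyte genes Dct and Pmel were highest in MC38 anti-PD-1 17, at 2.11 and 2.22 CPM, and Tyr at 16.2 CPM in PancO2 anti-PD-1 71. Of the Merkel cell list, Sox2 was at 55.7 to 132.5 CPM in H2-Ea-ps-positive libraries and at most 35.8 CPM elsewhere, Piezo2 reached 114 CPM in CT26 anti-PD-1 41, Isl1 reached 3.68 CPM in PancO2 anti-PD-1 71, and Atoh1, which defines that cell, stayed at or under 0.061 CPM in all libraries but PancO2 anti-PD-1 71 (1.27 CPM). The part of skin taken along with a tumor in the keratin peaks was not tested.

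PancO2 anti-PD-1 71, the library of low depth, held low levels of many keratins. It was the highest library for 8 keratins, Krt2, Krt7, Krt12, Krt24, Krt40, Krt82, Krt84 and Krt222, at 0.254 to 6.72 CPM. Since 1 count was worth 0.127 CPM there, some of these levels rest on few counts, Krt2 and Krt24 on 4 each. Krt40, at 0.254 CPM, was under the 0.381 CPM that a count of 0 allows in this library. Krt82, a hair shaft keratin, was at 4.44 CPM (35 counts) there and at most at 0.819 CPM elsewhere, Krt222 at 3.17 CPM, Krt25 at 1.90 CPM and Krt77 at 1.27 CPM. Beside them stood its hair keratin sum of 10.02 CPM, its hair follicle sum of 56.1 CPM and an epidermal marker sum of 24.1 CPM against a median of 3.12 CPM in its class, with peaks of Ivl, Krtdap, Dsg3 and Dsc3. Krt5, Krt1, Krt6a and Krt71 had 0 counts there, which allows up to 0.381 CPM (3 counts of its total, counting error only).

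The remaining members were sparse. Krt76 of the mucosal list reached 3.85 CPM in MC38 IgG 7, Krt78 2.50 CPM in PancO2 IgG 48 and Krt12, of the cornea, 1.01 CPM in PancO2 anti-PD-1 71. Krt4, the mucosal partner of Krt13, did not pass 0.169 CPM. Krt42, Krt88 and Krt90 had at most 3 counts in a library.

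Some of these counts are uncertain because family members share sequence. Of the 50-base windows in a gene's GENCODE transcripts, 57.2% were shared with another gene for Krt6a and 50.1% for Krt6b (mainly with each other), 37.6% for Krt16, 29.7% for Krt8 (with Krt8-ps among others), 13.9% for Krt14 and 12.2% for Krt5. Among the hair shaft genes the share was 43.3% for Krt86, 37.7% for Krt81, 36.9% for Krt87 and 33.1% for Krt34, and for the corneal Krt12 it was 42.04%, with A830036E02Rik. Krt18 shared 0.720%, Krt71 1.97%, and Krt13, Krt19 and Krt20 shared 0. Reads from shared stretches may have been set aside or placed on the other gene. Levels per kb used the whole exon length, so the ratios of Krt8 to Krt18 and of type II to type I were not corrected for this.

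The labelled groups were compared to ask whether keratins differed between models and between treatments. No keratin was called by edgeR in any of 12 comparisons, 3 between models under IgG and 9 between treatments within a model. Between 10 and 11 keratins were abundant enough to be tested in each (13 different ones in all, 41 never), among 16285 to 16510 genes. By the quasi-likelihood test of edgeR, adjusted after Benjamini and Hochberg, 0 keratins and 0 genes (0%) passed an adjusted p of 0.05 in every comparison, with 25 to 973 genes at an unadjusted p under 0.05. The lowest adjusted p of a keratin was 0.806.

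Krt8 in labelled IgG libraries was at 56.8, 0.129, 0.182 and 453 CPM for MC38, at 122, 0.391, 395 and 65.0 CPM for CT26 and at 363, 275, 174 and 0.427 CPM for PancO2. Each group held at least 1 library under 1 CPM and at least 1 at 363 CPM or above, and the groups overlapped. The log2 fold changes of Krt8 over the 12 comparisons lay between -0.60 and 1.13, with standard errors of 1.81 to 2.21, so that no difference was detectable at this spread. Those of Krt18 lay between -1.09 and 1.70 (standard errors 1.88 to 2.35), those of Krt20 between -1.40 and 1.82 (2.53 to 2.73) and those of Krt80, which varied less by class, between -0.64 and 0.97 (0.46 to 0.58).

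Of 129 keratin tests, 8 had an unadjusted p under 0.05, all with the libraries labelled PancO2 IgG on a side. PancO2 against MC38 under IgG gave 4 of them, Krt5, Krt14, Krt17 and Krt10. Their log2 fold changes were 9.66, 7.66, 7.42 and 2.47 (edgeR adjusted p = 0.999962 for each). The comparisons of anti-PD-1 and of anti-CTLA4 with IgG in PancO2 gave 2 each, Krt14 and Krt10. Krt14 was at 210, 19.5, 0.532 and 0.071 CPM in PancO2 IgG libraries and at 0.042, 0.076, 0.461 and 0 CPM in PancO2 anti-CTLA4 libraries. Its log2 fold change was -8.42 with a standard error of 2.25 (edgeR adjusted p = 0.999997). The high values came from PancO2 IgG 48 and PancO2 IgG 49, and the other pair of IgG libraries overlapped with the treated group. The DESeq2 Wald test called Krt14 in this comparison (adjusted p = 0.0223), as 1 of 2 genes. Against PancO2 anti-PD-1 the log2 fold change was -8.08 with a standard error of 2.27 (edgeR adjusted p = 0.806).

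**Figure D5:**
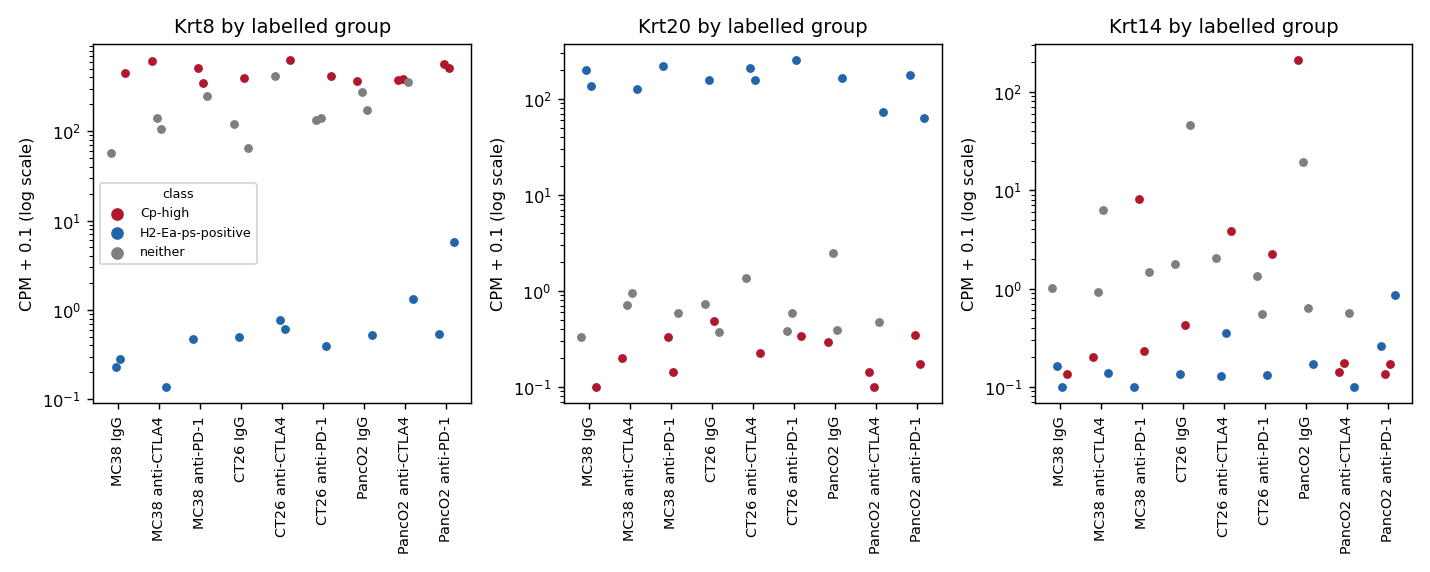
Krt8, Krt20 and Krt14 are plotted as CPM plus 0.1 on log axes for the 9 labelled groups, with 1 point for each of 4 libraries, colored by expression class. Krt8 and Krt20 follow the color and not the labelled group, while Krt14 is high in single libraries such as PancO2 IgG 48 (210 CPM) and CT26 IgG 29 (46.3 CPM).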

How the data were processed

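Poly-adenylated RNA of 36 tumors, 1 library each, was sequenced after preparation with an Illumina TruSeq kit (V2), per the labels. The deposited values are raw counts per Ensembl gene. TopHat and Bowtie2 served the authors for mapping to GRCm38/mm10, and HTSeq for counting (version 07.2 in the submitters' processing notes, which also name FastQC 0.11.5). The Ensembl release and the use of strand are not given in the sources used here, so counts of overlapping or antisense genes are uncertain. The 5 HTSeq summary lines, 44.8% to 86.5% of a library's listed reads, were left out.

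From the counts, CPM was computed over 37417 gene rows in Python 3.11.15 (numpy 2.4.6, pandas 2.3.3, figures with matplotlib 3.10.9), and symbols were found for 32608 genes. Levels per kb used the union of GENCODE M21 exons. Labelled groups of 4 were compared by edgeR 4.0.16 in R 4.3.3 (filterByExpr, TMM, robust glmQLFit, glmQLFTest, two-sided), fitted on the 12 IgG libraries between models or the 12 libraries of a model between treatments. Standard errors were derived from the F statistic (log2 fold change over its root). Mouse numbers differ between all libraries, and p-values measure the spread between these tumors, which may in part be technical. DESeq2 1.42.0 and limma 3.58.1 (the package named by the study, here with voom) were alternatives. The fits were tested on simulated data in which each group was uniform. The labelled groups mix classes, so that test does not measure the power of the comparisons between them.

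Members, lists and the naming rule were chosen with earlier results of these data known. The rule named the keratins usual for each epithelium, the 3 highest of the inner root sheath and hair shaft lists, any keratin above 10 CPM or called, the top 3 genes of each other list and the 5 genes most like Krt18 and Krt14. Others named were chosen after their values were seen. A keratin of the hair shaft list and an epidermal marker are not analysed here. Promoter windows were taken from RefSeq (GRCm38.p6).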

Additional observations from a re-analysis of the deposited data

Results flagged for a closer look

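In each labelled group of 4 libraries, 3 sums of keratins were checked for a library far from its group, by its gap to the nearest other library over the group's range (above Dixon's 95% critical value). Of 27 checks, 11 stood out. The rate of 1 in 20 behind the critical value holds for normally spread values. These groups mix expression classes and hold the peaks described above, so the 11 cannot be set against that rate. The sum of simple epithelial keratins stood out in MC38 anti-CTLA4 8, the 1 Cp-high library of its group, at 1138 CPM against 128 to 180 CPM in the other 3.

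The sum of interfollicular and follicle or stress keratins stood out, on the high side, in 5 groups. The values were 37.0 CPM in MC38 anti-CTLA4 11, 70.8 CPM in MC38 anti-PD-1 17, 165 CPM in CT26 IgG 29, 23.7 CPM in CT26 anti-PD-1 46 and 936 CPM in PancO2 IgG 48. The nearest other library of these groups was at 5.41, 6.23, 6.69, 5.56 and 62.1 CPM.

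The sum of inner root sheath and hair shaft keratins stood out in 5 groups as well, at 103 CPM in MC38 anti-PD-1 17, 15.1 CPM in CT26 IgG 28, 1.55 CPM in CT26 anti-CTLA4 36, 110 CPM in CT26 anti-PD-1 46 and 2.24 CPM in PancO2 IgG 48. The nearest others were at 0.694, 0.284, 0.423, 0.286 and 0.464 CPM. All 5 are Cp-high libraries, and each is the only Cp-high library of its labelled group except MC38 anti-PD-1 17.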

How the results depend on the processing

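Of 812 values recomputed under an alternative, 795 stayed within the limits set for a change, 17 moved and 0 reversed. None of the 336 class medians moved by more than the spread of its class under TMM-scaled CPM, CPM without mitochondrially encoded genes, leaving out PancO2 anti-PD-1 71, or class limits of 1 CPM for H2-Ea-ps and 500 CPM for Cp. These checks were mild, since TMM shifted the classes by a median log2 of only -0.012 to 0.041. A keratin that varies widely in its class can hardly pass this limit, such as Krt14 in Cp-high libraries (0.035 to 210 CPM). The class limits of 1 and 500 CPM moved 1 library, PancO2 IgG 49, to the Cp-high class. Keratins higher without overlap in Cp-high libraries then fell to 0 against neither and to 1 against H2-Ea-ps-positive libraries, and the genes without overlap to 541 higher and 760 lower, and to 1986 higher and 1247 lower. Without PancO2 anti-PD-1 71, 3 keratins were lower in H2-Ea-ps-positive than in neither libraries (beside 10.7% of genes), and 6 were higher in Cp-high than in H2-Ea-ps-positive libraries (beside 11.8%). Peak counts kept within 1.5 times under TMM scaling and the loss of PancO2 IgG 48, and under limits of 5 and 20 times the median. The last of these checks cannot decide much. For keratins with a median of 0, such as Krt1, Krt5, Krt25 and Krt71, a peak rests on the floor of 1 CPM alone.

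In the labelled comparisons, the 96 fits that each left out a library gave counts of 0 to 0 genes and keratins. The DESeq2 Wald test called 1 gene between PancO2 and MC38 under IgG and 1 between CT26 and MC38. Within PancO2 it called 2 genes between anti-PD-1 and IgG, 2 between anti-CTLA4 and IgG (1 of these a keratin, Krt14), and 12 between both antibodies. A fit of all 36 libraries called 49 genes between anti-PD-1 and IgG in PancO2 (0 with a class term) and 234 between both antibodies (193 with a class term). With the class term and without PancO2 anti-PD-1 71, an alternative chosen after the data were seen, the count between both antibodies was 0, and 2 genes were called for CT26 anti-CTLA4 against IgG. The cause was not tested. No paired analysis was possible because each mouse number names a single library. Depth limits genes at a few counts, which includes most hair keratins outside the libraries where they peaked.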
